A study of Mus musculus with 42 samples.

Results

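The 35 genes described here encode the enzymes of glycolysis and of the pentose phosphate pathway, together with hypoxia-inducible factor 1 alpha (Hif1a) and a set of its known target genes. They were taken by gene name from RNA sequencing tables of whole mouse kidney, in which 54532 gene rows are listed, and all 35 names were found. Glycolysis splits glucose into pyruvate, and the pentose phosphate pathway diverts glucose 6-phosphate to make NADPH and ribose. Hypoxia-inducible factors (HIF) are transcription factors that are degraded in oxygen, and when stable they bind a short DNA core and raise many glycolytic genes, the glucose transporter Slc2a1 and the angiogenic factor Vegfa. The mTORC1 kinase, which TSC2 restrains, is known to raise HIF1A and glycolytic enzymes in cultured cells, whereas in the kidney the proximal tubule makes glucose and uses little of it, and glycolytic enzymes are richer in the distal nephron.

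The study compared kidneys that lacked Tsc2, Tfeb (a transcription factor of lysosomal genes) or both with control kidneys, in 14 groups of 3 libraries from C57BL/6 mice. In the CaggCreERT2 cohort, taken at 30 days of age, a tamoxifen-inducible Cre active in the whole body deleted floxed alleles, tamoxifen being given to the nursing mothers shortly after birth. The groups were control (labelled wild type, and in the study's text Cre-positive Tsc2 +/+ mice that also received tamoxifen), Tsc2 fl/fl (Tsc2 KO), Tfeb fl/fl (Tfeb KO) and Tsc2 fl/fl; Tfeb fl/fl (DKO). In the untreated KspCre cohort, taken at 50 days, Cre under the cadherin 16 promoter deleted the same alleles in kidney epithelium, and controls carried no Cre. A further cohort, also KspCre at 50 days, held control, Tsc2 KO and DKO mice given vehicle or the mTORC1 inhibitor rapamycin at 1 mg/kg, 3 times per week for 11 injections. Tissue that no Cre reaches keeps its alleles and its RNA is in every library. The study describes its replicates as biological, while no label names the animal behind a library, so p-values measure the spread between libraries.

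Libraries held 14926050 to 22807605 counted reads, and levels are given as FPKM (a scale per transcript length and library size on which genes can be compared). Tsc2 stood at 3.54 to 4.55 FPKM in the Tsc2 KO libraries that received no rapamycin, against 8.59 to 10.6 FPKM in their controls, and with rapamycin at 5.06 to 6.50 FPKM against 8.18 to 8.93 FPKM. Tfeb stood at 1.99 to 5.25 FPKM in the libraries labelled Tfeb KO or DKO and lay below every control of its own cohort and treatment. The gap was narrow for Tfeb KO of the untreated KspCre cohort, whose highest library held 5.25 FPKM against 5.85 FPKM in the lowest control. All CaggCreERT2 controls were male by Y-linked genes and all Tfeb KO libraries of that cohort female, as were Tsc2 KO replicates 1 and 3 and DKO replicate 3, whereas both KspCre cohorts were female throughout. The count and FPKM tables of the CaggCreERT2 cohort disagree on the names of 4 libraries, and the FPKM names were used here. Under them Tsc2 stood at 9.06 to 10.2 FPKM in Tfeb KO and 4.82 to 5.64 FPKM in DKO, whereas the count table's names put a library at 5.26 FPKM in Tfeb KO and one at 10.2 FPKM in DKO. In the vehicle groups, replicate 1 of Tsc2 KO and replicates 1 and 2 of DKO held adrenal gland markers at 734, 128 and 1974 summed FPKM, against at most 0.0586 in the vehicle controls, and Tfeb KO replicate 1 of the CaggCreERT2 cohort held 111. These 4, all above 100 FPKM, are called high in adrenal markers, and results that rest on them are given with and without them. Replicate 2 of vehicle Tsc2 KO, at 20.3, and replicate 2 of CaggCreERT2 Tfeb KO, at 13.8, also stood far above controls and stay in all those fits. The 2 vehicle DKO libraries also held the most erythroid marker RNA of that cohort, 2059 and 2153 FPKM, against 364 in replicate 3, 200.4 to 301 in vehicle controls and 14.3 to 87.1 in vehicle Tsc2 KO. Adrenal and erythroid RNA therefore cannot be told apart in what leaving these 2 libraries out changes. Adipose tissue markers were also uneven within groups, at 197.5, 182.4 and 0.156 FPKM in vehicle controls and 10.25, 13.75 and 51.17 in vehicle Tsc2 KO. In the untreated KspCre cohort they stood at 162.3, 111.0 and 20.29 FPKM in controls and 1.523, 166.7 and 0.677 in Tsc2 KO. No library was left out for them, and their part in the members' values was not tested. In CaggCreERT2 Tfeb KO against control no member was called with or without replicate 1.

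A gene was called when its adjusted p from edgeR's quasi-likelihood test was 0.05 or lower (Benjamini-Hochberg over all genes tested) and its mean was at least 5 FPKM in one of the groups compared. All 35 members were tested in each cohort. Hk2, Eno2, Slc16a3, Pfkfb4 and Ankrd37 stayed below 5 FPKM in every group mean and so could not be called. Members such as P4ha2, Car9, Egln3, Pdk1 and Adm passed 5 FPKM in some comparisons only through the group in which they were higher. Their presence among the calls, as rises or as falls, is in part a consequence of that minimum.

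The DNA core that HIF binds is shown in the upstream sequence of some of the members whose changes recurred. For 34 members (Ndrg1 was not matched) 49 windows of 250 bases before a RefSeq start site were read on GRCm38.p6, and ACGTG (both strands) stood in 18 genes, 52.9% against 18.5% of the 27025 genes with a window. GCGTG, the other form of the core, stood in 23 members, 67.6% against 30.9%, and at least one form stood in 31 members, 91.2% against 41.5%. A gene was counted when any of its windows held the motif, and members had more windows per gene. By window, at least one form stood in 39 of the members' 49, against 38.6% of all 32851. Part of the members were listed as known HIF targets, so these shares are no test of the core. The members' windows were also richer in G and C (median 60.4% against 52.4%) and in CG dinucleotides (median 14 against 6), which both forms contain. The longer motif CACGTG, which contains ACGTG and is the core shared by the MiT/TFE family to which TFEB belongs, stood in 5 members, 14.7% against 6.86%. Each motif was searched on both strands. A match is a description of the letters and not a bound site. The windows below are those of 3 genes that rose with Tsc2 loss (Pfkp, Pgd and G6pdx), of Ldha, and of 2 that fell (P4ha1 and Vegfa), 5′ to 3′ on each gene's own strand and ending at the base before the start site, with both forms of the core on either strand in capitals. Their positions are chr13:6648772-6649021 (minus strand) for Pfkp, chr4:149166706-149166955 (minus) for Pgd, chrX:74428881-74429130 (minus) for G6pdx, chr7:46845554-46845803 (plus) for Ldha, chr10:59323046-59323295 (plus) for P4ha1 and chr17:46032378-46032627 (minus) for Vegfa.
Pfkp: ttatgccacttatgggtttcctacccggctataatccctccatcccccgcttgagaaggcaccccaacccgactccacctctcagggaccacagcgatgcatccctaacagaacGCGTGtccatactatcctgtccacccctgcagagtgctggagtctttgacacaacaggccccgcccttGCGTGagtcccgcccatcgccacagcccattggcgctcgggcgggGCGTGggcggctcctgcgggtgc
Pgd: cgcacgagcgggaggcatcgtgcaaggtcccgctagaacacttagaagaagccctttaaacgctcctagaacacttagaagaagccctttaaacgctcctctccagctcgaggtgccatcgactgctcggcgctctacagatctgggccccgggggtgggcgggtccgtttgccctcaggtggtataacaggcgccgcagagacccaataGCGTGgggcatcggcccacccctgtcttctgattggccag
G6pdx: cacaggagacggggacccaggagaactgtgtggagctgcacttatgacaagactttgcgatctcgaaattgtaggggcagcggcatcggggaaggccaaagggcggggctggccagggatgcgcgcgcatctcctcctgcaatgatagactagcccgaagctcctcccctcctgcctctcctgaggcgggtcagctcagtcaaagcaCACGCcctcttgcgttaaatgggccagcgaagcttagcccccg
Ldha: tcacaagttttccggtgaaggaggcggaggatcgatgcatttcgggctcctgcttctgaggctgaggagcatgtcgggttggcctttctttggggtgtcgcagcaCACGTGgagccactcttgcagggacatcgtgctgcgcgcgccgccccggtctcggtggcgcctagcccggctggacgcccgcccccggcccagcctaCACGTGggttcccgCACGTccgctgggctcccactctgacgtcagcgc
P4ha1: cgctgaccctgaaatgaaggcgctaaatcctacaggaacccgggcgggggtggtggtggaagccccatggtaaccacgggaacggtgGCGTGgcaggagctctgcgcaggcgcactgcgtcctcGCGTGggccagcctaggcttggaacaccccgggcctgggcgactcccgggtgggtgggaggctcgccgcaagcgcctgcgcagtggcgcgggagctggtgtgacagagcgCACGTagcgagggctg
Vegfa: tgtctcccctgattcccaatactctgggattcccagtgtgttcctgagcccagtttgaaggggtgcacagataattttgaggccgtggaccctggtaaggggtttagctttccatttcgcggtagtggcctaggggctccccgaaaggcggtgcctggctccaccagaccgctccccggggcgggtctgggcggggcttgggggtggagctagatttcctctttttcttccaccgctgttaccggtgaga

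Among the windows shown, the core stood in those of genes that rose and in that of P4ha1, which fell. Pfkp held it 3 times as GCGTG, Pgd and G6pdx once each as GCGTG, and Ldha 5 times as ACGTG, where each of its 2 copies of CACGTG counts on both strands. P4ha1 held it 3 times, and Vegfa 0 times in the window shown, which is the one at the start of the gene. Vegfa counts among the members with a core through a further RefSeq start site, at chr17:46025163 inside the gene, whose window held it 2 times. Pgd and Ldha have a further RefSeq start site each, and those windows held the core 0 times and 1 time. Both RefSeq start sites of Ldha lie inside the span that the deposited tables give for the gene, which starts at chr7:46841475. Aldoa, which rose in 2 cohorts, and Pfkm and Pfkl, which fell in 2, are not shown. Over their start sites Aldoa held the core 1, 1 and 0 times, Pfkm 2, 2, 1 and 0 times and Pfkl 1 time.

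Loss of Tsc2 moved some members up and others down in each cohort, and the glycolytic and HIF target genes did not move as a block. In the CaggCreERT2 cohort 10 of the 28 members that reached 5 FPKM rose and 4 fell, where 23% of all such genes rose and 15.5% fell. Of 27 members in the untreated KspCre cohort, 2 rose and 3 fell, against 9.42% and 8.74% of all genes, and under vehicle 7 of 28 rose and 5 fell, against 23.8% and 24.6%. The median log2 fold change of all 35 members was 0.19, 0.17 and 0.13 in the 3 cohorts. Over all genes that reached 5 FPKM it was 0.06, -0.01 and 0.00. These sets are unlike, since the members' median also takes in members below 5 FPKM. The share of members that rose was 35.7% in the CaggCreERT2 cohort, 7.41% in the untreated KspCre cohort and 25% under vehicle, so the share that rose lay above that of all genes in the first cohort and near or below it in the others. In whole tissue, fewer cells of a type and less RNA per cell cannot be told apart. The CaggCreERT2 count of 14 called members became 9 with Xist as a covariate for sex and 4 with the sample names of the count table. The control and Tsc2 KO libraries carry the same names either way. Those names therefore change this comparison only through the spread that the fit shares with the Tfeb KO and DKO groups. With only the 2 groups compared in the fit the count was 12. With the covariate Pdk1, Pfkm, Gpi1, Hk1 and Ldha were no longer called, with the same sign as before, and the part of sex in their values was not tested further. Without the libraries high in adrenal markers (of which the Tsc2 KO group holds replicate 1) the vehicle count of 12 became 8. Pfkl, Aldoa, Adm and Ldha were no longer called, with log2 fold changes of -0.34, 0.32, 0.47 and 0.40 in place of -0.41, 0.41, 0.61 and 0.44. The map of log2 fold changes by role shows where the calls lie.

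**Figure D1:**
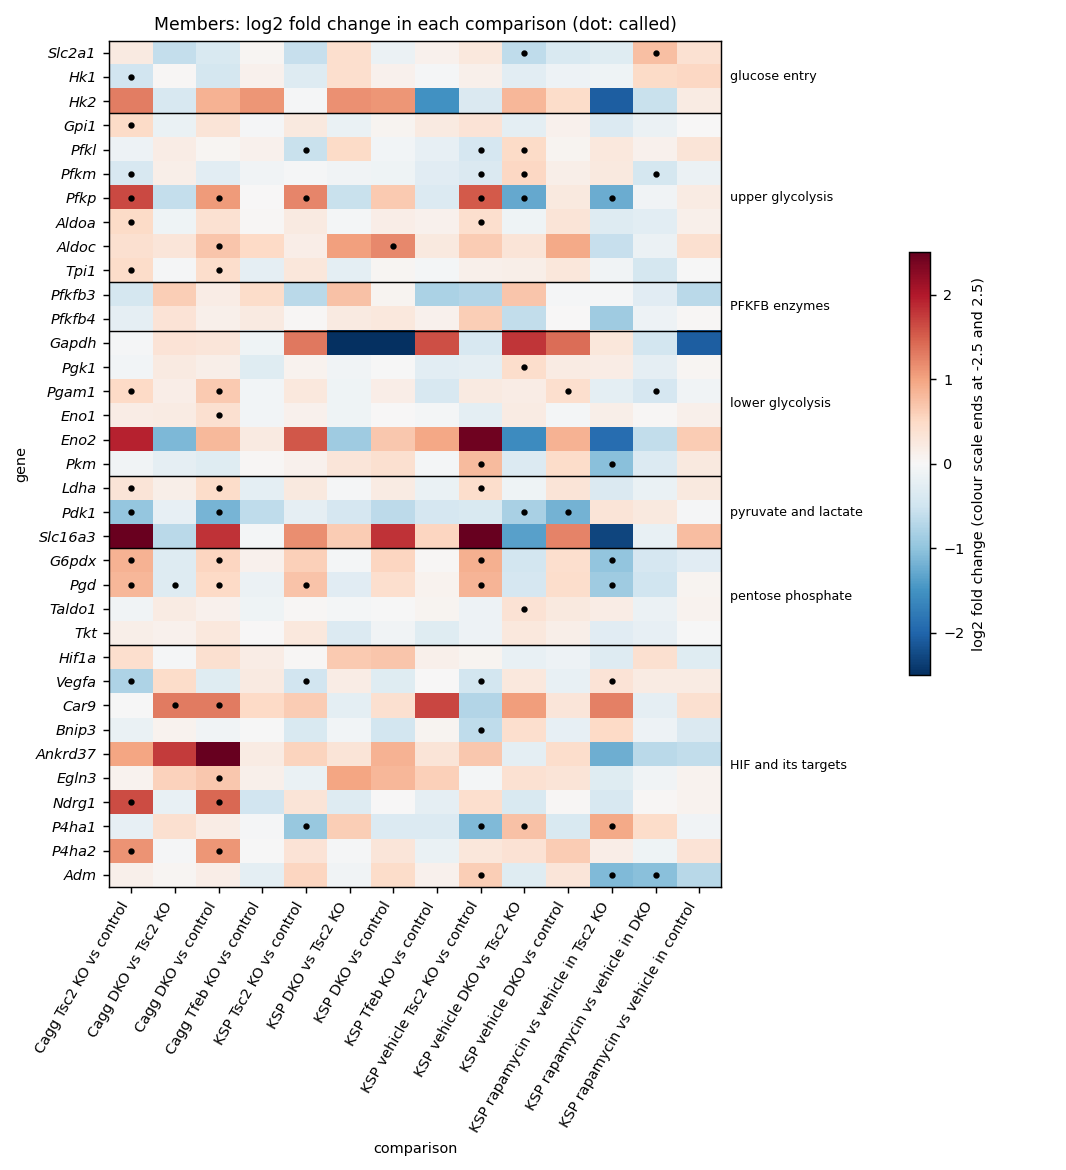
Log2 fold change of each of the 35 members (rows, grouped by role) in 14 comparisons (columns), with red for higher and blue for lower in the first-named group and a dot where the gene was called. Pfkp is red with a dot in Tsc2 KO against control of all 3 cohorts, and Vegfa is blue with a dot in the same 3 columns, whereas the Gapdh row takes its darkest colours in KSP columns without a dot.

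**Figure D2:**
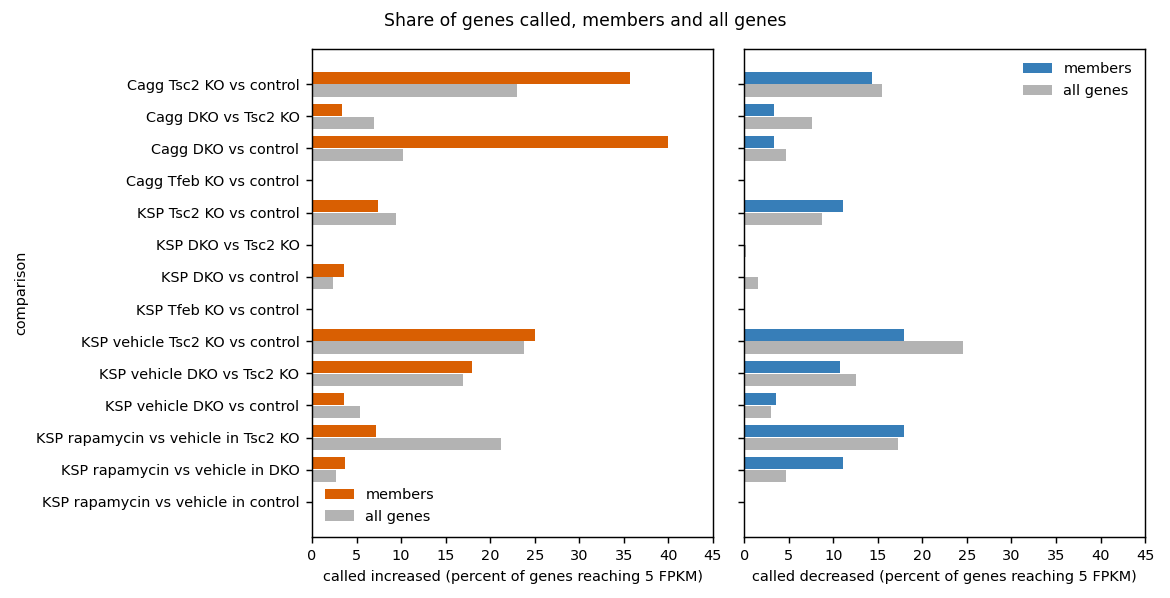
Percent of members (coloured bars) and of all genes (grey bars) reaching 5 FPKM that were called increased (left) or decreased (right) in each of 14 comparisons. The members' bar for increases stands above the grey bar in Cagg Tsc2 KO vs control (35.7% against 23%) and in Cagg DKO vs control (40.0% against 10.2%).

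Pfkp (ENSMUSG00000021196, chr13:6579768-6648777 on mm10, minus strand), the platelet isozyme of phosphofructokinase, which commits glucose to glycolysis, rose in all 3 cohorts. It stood, in the CaggCreERT2 cohort, at 5.92, 5.74 and 6.26 FPKM in the controls and 20.0, 23.1 and 10.9 FPKM in Tsc2 KO. Its values in the untreated KspCre cohort were 4.58, 5.30 and 7.495 FPKM in the controls and 13.2, 13.2 and 14.3 FPKM in Tsc2 KO, and under vehicle 5.94, 4.25 and 5.17 FPKM and 14.4, 14.6 and 15.5 FPKM. Every Tsc2 KO library lay above every control of its cohort, with replicate 3 of the CaggCreERT2 Tsc2 KO group well below its 2 fellows. The log2 fold change was 1.66 ± 0.25 (SE, adjusted p = 0.00051), 1.23 ± 0.23 (SE, adjusted p = 0.00556) and 1.54 ± 0.13 (SE, adjusted p = 2.65e-07), and the call held in each cohort with any 1 library left out.

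The liver and muscle isozymes of phosphofructokinase did not follow Pfkp. Pfkm, the muscle isozyme, stood at 30.6, 28.8 and 27.4 FPKM in the CaggCreERT2 controls and 16.4, 23.6 and 22.7 FPKM in Tsc2 KO, and at 24.9, 20.8 and 24.5 FPKM and 16.6, 19.4 and 18.7 FPKM under vehicle. Its groups were apart in each, and it fell in both, with log2 fold changes of -0.41 (adjusted p = 0.0227) and -0.36 (adjusted p = 0.0102), whereas in the untreated KspCre cohort the log2 fold change was -0.02 (adjusted p = 0.942). The CaggCreERT2 call was lost without control replicate 1 or 2 or Tsc2 KO replicate 1, with an adjusted p of up to 0.077. Pfkl, the liver isozyme, stood at 17.9, 13.8 and 15.7 FPKM in the untreated KspCre controls and 8.45, 13.6 and 10.2 FPKM in Tsc2 KO, and at 16.8, 14.0 and 13.1 FPKM and 9.97, 10.8 and 12.2 FPKM under vehicle. All Tsc2 KO libraries lay below their controls, the highest of them by a small margin in the untreated cohort. Pfkl fell in both (-0.56 ± 0.17 SE, adjusted p = 0.0489 and -0.41 ± 0.15 SE, adjusted p = 0.0371), and the first call held only without Tsc2 KO replicate 2 (adjusted p up to 0.183 without any other single library), the second only without replicate 3 of control or of Tsc2 KO (up to 0.14).

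The share of each isozyme in the summed FPKM of Pfkm, Pfkl and Pfkp moved with these changes. Pfkp made up 11.5% ± 0.960 (SD, n = 3) of it in the CaggCreERT2 controls and 33.0% ± 9.37 in Tsc2 KO. The share was 13.0% ± 3.56 and 28.8% ± 1.97 in the untreated KspCre cohort, and 11.8% ± 0.828 and 33.7% ± 1.31 under vehicle. In rapamycin-treated Tsc2 KO it was 15.3% ± 1.66, against 12.9% ± 0.559 in rapamycin-treated controls. In DKO it was 22.8% ± 2.95 in the CaggCreERT2 cohort and 20.2% ± 3.59 in the untreated KspCre cohort, above their controls, and 12.8% ± 0.545 under vehicle, where 2 of the 3 libraries were high in adrenal markers. These shares rest on the same values as the tests above and carry no test of their own.

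**Figure D3:**
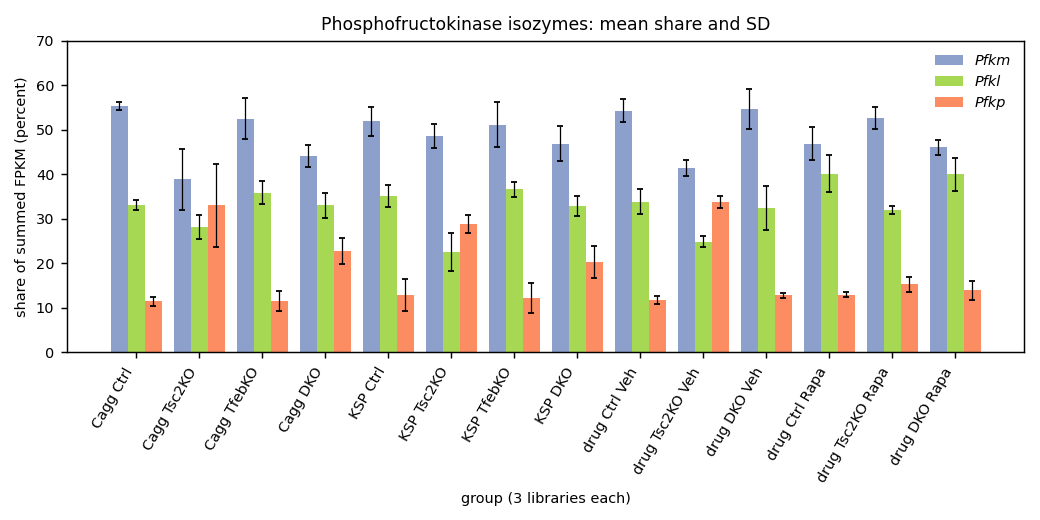
Mean share, in percent of summed FPKM, of the phosphofructokinase genes Pfkm, Pfkl and Pfkp in each of the 14 groups, with bars for the SD over 3 libraries. The Pfkp bar stands at 33.0% in Tsc2 KO of the CaggCreERT2 cohort, 28.8% in that of the untreated KspCre cohort and 33.7% in that of the vehicle cohort, and between 11.5% and 15.3% in controls, Tfeb KO, vehicle DKO and all rapamycin groups. In DKO of the CaggCreERT2 and untreated KspCre cohorts it stands between, at 22.8% and 20.2%.

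Both members of the oxidative branch of the pentose phosphate pathway rose with Tsc2 loss in at least 2 cohorts, and the non-oxidative members were not called. Pgd (6-phosphogluconate dehydrogenase, the second NADPH-forming step) stood at 19.3, 17.96 and 19.6 FPKM in the CaggCreERT2 controls and 34.98, 31.6 and 29.6 FPKM in Tsc2 KO. The untreated KspCre values were 18.2, 15.5 and 15.2 and 26.3, 30.2 and 24.4 FPKM, and the vehicle values 19.8, 15.2 and 15.3 and 34.7, 25.3 and 31.2 FPKM. No Tsc2 KO library overlapped a control in any cohort. Pgd rose by 0.82 ± 0.09 (SE, adjusted p = 7.11e-05), 0.72 ± 0.17 (SE, adjusted p = 0.0173) and 0.86 ± 0.15 (SE, adjusted p = 0.000387) on the log2 scale. The untreated KspCre call was lost without control replicate 2 or 3 or Tsc2 KO replicate 2, with an adjusted p of up to 0.068.

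G6pdx, glucose 6-phosphate dehydrogenase and the entry to the pathway, stood at 9.67, 9.78 and 12.1 FPKM in the CaggCreERT2 controls and 22.1, 16.9 and 16.2 FPKM in Tsc2 KO. Under vehicle it stood at 16.5, 14.3 and 9.66 FPKM in the controls and 31.0, 21.6 and 22.7 FPKM in Tsc2 KO. The groups did not overlap, and G6pdx rose by 0.87 ± 0.14 (SE, adjusted p = 0.000833) and 0.90 ± 0.21 (SE, adjusted p = 0.00322). Levels in the untreated KspCre cohort were 13.0, 10.1 and 12.9 and 18.3, 22.6 and 13.5 FPKM, with all 3 Tsc2 KO libraries above the controls, replicate 3 by a small margin, and the log2 fold change of 0.59 ± 0.19 (SE, adjusted p = 0.0586) missed the threshold. Taldo1 (transaldolase) and Tkt (transketolase), which interconvert the sugar phosphates, had log2 fold changes of -0.09, 0.04 and -0.12, and 0.15, 0.26 and -0.13, none called.

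Of the other upper glycolytic enzymes, Aldoa, the aldolase of muscle and most tissues, was called in 2 cohorts. It stood at 420.3, 381 and 449.7 FPKM in the CaggCreERT2 controls and 542, 561 and 567 FPKM in Tsc2 KO. Under vehicle it stood at 417, 305 and 349.8 and 539, 425 and 464 FPKM. The Tsc2 KO libraries lay above the controls in both, with a narrow gap under vehicle, and Aldoa rose by 0.48 ± 0.13 (SE, adjusted p = 0.0146) and 0.41 ± 0.15 (SE, adjusted p = 0.0351). It lost the first call without control replicate 1 or 2 (adjusted p up to 0.0649), and the second without vehicle control replicate 2 or 3 or Tsc2 KO replicate 1 or 3 (up to 0.147). In the untreated KspCre cohort Aldoa ranged over 395 to 446 FPKM in the controls and 446 to 562 FPKM in Tsc2 KO, and was not called (log2 fold change 0.22). Gpi1 (glucose 6-phosphate isomerase) and Tpi1 (triose phosphate isomerase) were called in the CaggCreERT2 cohort alone, with log2 fold changes of 0.47 (adjusted p = 0.0128, 0.0585 without control replicate 2) and 0.46 (adjusted p = 0.00856). Aldoc, the brain aldolase, had log2 fold changes of 0.39, 0.17 and 0.63, none called.

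Of the glucose entry genes only Hk1 was called, in 1 cohort. Slc2a1, the basal glucose transporter, stood at 30.9, 33.2 and 29.8 FPKM in the CaggCreERT2 controls and 46.2, 25.3 and 33.0 FPKM in Tsc2 KO, at 21.1, 23.6 and 28.2 and 15.9, 17.5 and 15.7 FPKM in the untreated KspCre cohort and at 17.3, 22.1 and 20.1 and 31.2, 22.1 and 17.9 FPKM under vehicle. The groups overlapped in the first and last cohort and lay apart, with Tsc2 KO lower, in the untreated KspCre cohort. None was called, with log2 fold changes of 0.22 ± 0.22 (SE, adjusted p = 0.488), -0.57 ± 0.20 (SE, adjusted p = 0.0794) and 0.26 ± 0.19 (SE, adjusted p = 0.296). Hk1, the constitutive hexokinase, fell in the CaggCreERT2 cohort (-0.47 ± 0.16 SE, adjusted p = 0.0409), a call that held only without Tsc2 KO replicate 3, with an adjusted p of up to 0.137 without any other single library. Hk2, the inducible hexokinase and a known HIF target, ranged from 0.0413 to 5.14 FPKM over all libraries, and libraries of 1 group lay far apart, as in the untreated KspCre DKO at 5.14, 1.72 and 0.325 FPKM. Pfkfb3, which makes an activator of phosphofructokinase, had log2 fold changes of -0.43, -0.66 and -0.73, none called. Pfkfb4, which acts on the same sugar, ranged from 1.01 to 2.74 FPKM.

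In lower glycolysis Pkm rose under vehicle and Pgam1 in the CaggCreERT2 cohort. Pkm, the pyruvate kinase of most tissues, stood at 88.9, 65.3 and 73.1 FPKM in vehicle controls and 143, 135 and 113 FPKM in vehicle Tsc2 KO. Every Tsc2 KO library was higher, and Pkm rose by 0.78 ± 0.14 (SE, adjusted p = 0.000381). In the CaggCreERT2 cohort Pkm stood at 104, 97.7 and 98.7 FPKM in controls and 104, 79.5 and 87.5 FPKM in Tsc2 KO, and in the untreated KspCre cohort at 82.3, 75.1 and 83.8 and 73.7, 117 and 69.1 FPKM. The groups overlapped in both of these, with log2 fold changes of -0.08 and 0.10 that were not called. Pgam1 (phosphoglycerate mutase) rose in the CaggCreERT2 cohort (0.50 ± 0.12 SE, adjusted p = 0.0102), and Pgk1 (phosphoglycerate kinase) and Eno1 (the main enolase) were called in no cohort. Eno2, the neuronal enolase, stood at 0.324, 0.198 and 0.380 FPKM in vehicle controls and 2.12, 1.53 and 1.24 FPKM in vehicle Tsc2 KO, apart but too low to be called. Its log2 fold change was 1.93 ± 0.27 (SE, adjusted p = 0.000282), 1.56 ± 0.44 (SE, adjusted p = 0.035) and 2.44 ± 0.38 (SE, adjusted p = 0.000101).

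At the fate of pyruvate Ldha rose in 2 cohorts and Pdk1 fell in 1. Ldha (lactate dehydrogenase A, which turns pyruvate into lactate) stood at 201, 188 and 196 FPKM in the CaggCreERT2 controls and 253, 230.1 and 212 FPKM in Tsc2 KO, and at 163, 134 and 155 and 213, 194 and 203 FPKM under vehicle. The groups did not overlap in either. Ldha rose by 0.31 ± 0.11 (SE, adjusted p = 0.0429) and 0.44 ± 0.14 (SE, adjusted p = 0.0184). The first call held only without Tsc2 KO replicate 3 (adjusted p up to 0.164 otherwise) and the second was lost without control replicate 2 or Tsc2 KO replicate 1 (up to 0.0807). In the untreated KspCre cohort it stood at 158, 142 and 156 and 161, 198 and 180.3 FPKM and was not called (0.24 ± 0.12 SE, adjusted p = 0.234). Pdk1, a kinase that inhibits pyruvate dehydrogenase in the mitochondrion and is a known HIF target, fell in the CaggCreERT2 cohort from 11.3 ± 1.42 to 5.59 ± 2.49 FPKM (mean ± SD, n = 3, log2 fold change -0.96 ± 0.29 SE, adjusted p = 0.0266), a call lost without control replicate 1 or 2 or Tsc2 KO replicate 1 or 2 (up to 0.0857). Slc16a3, the lactate exporter of glycolytic cells, stood at 0.307, 0.518 and 0.342 FPKM in CaggCreERT2 controls and 2.59, 2.46 and 1.16 FPKM in Tsc2 KO. It was higher in each Tsc2 KO library but below 5 FPKM, with log2 fold changes of 2.47 ± 0.35 (SE, adjusted p = 0.000295), 1.17 ± 0.51 (SE, adjusted p = 0.159) and 2.596 ± 0.65 (SE, adjusted p = 0.00495).

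Among HIF and its targets Vegfa fell in all 3 cohorts. Vegfa, the main angiogenic factor of podocytes and tubule cells, stood at 52.0, 47.8 and 58.4 FPKM in the CaggCreERT2 controls and 25.8, 31.4 and 31.5 FPKM in Tsc2 KO. The values were 44.3, 49.5 and 39.3 and 31.1, 31.5 and 32.9 FPKM in the untreated KspCre cohort, and 41.9, 35.9 and 45.1 and 32.2, 28.1 and 29.1 FPKM under vehicle. Every Tsc2 KO library was below every control of its cohort. The log2 fold change was -0.77 ± 0.15 (SE, adjusted p = 0.00292), -0.48 ± 0.13 (SE, adjusted p = 0.0273) and -0.46 ± 0.10 (SE, adjusted p = 0.002), and the untreated KspCre call held only without control replicate 3, with an adjusted p of up to 0.11 without any other single library. Podocyte markers moved the same way, with 5 genes summing to 156 to 174 FPKM in the CaggCreERT2 controls and 50.02 to 70.6 FPKM in Tsc2 KO, to 100.5 to 122 and 36.0 to 48.8 FPKM in the untreated KspCre cohort, and to 95.6 to 125 and 25.4 to 32.01 FPKM under vehicle, and their part in the fall of Vegfa was not tested.

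P4ha1, a collagen prolyl 4-hydroxylase, fell in both KspCre cohorts. It stood at 17.5, 15.2 and 18.2 FPKM in the untreated controls and 9.01, 6.64 and 10.8 FPKM in Tsc2 KO, and at 13.5, 14.4 and 13.4 and 6.22, 6.94 and 6.14 FPKM under vehicle. The groups were far apart. P4ha1 had log2 fold changes of -0.95 ± 0.28 (SE, adjusted p = 0.0432) and -1.10 ± 0.15 (SE, adjusted p = 4.16e-05), and the untreated call was lost in each of 6 fits that left out 1 library, with adjusted p-values of 0.0516 to 0.151. In the CaggCreERT2 cohort it stood at 16.9, 15.7 and 13.4 and 12.7, 13.8 and 11.5 FPKM, groups that overlapped, and was not called (-0.21 ± 0.14 SE, adjusted p = 0.269).

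Ndrg1 and P4ha2 were called in the CaggCreERT2 cohort alone. P4ha2 could not be called in the KspCre cohorts, where its control and Tsc2 KO means lay below 5 FPKM. In the CaggCreERT2 cohort P4ha2 passed that minimum only through the Tsc2 KO group. Ndrg1, a stress-induced gene and a common HIF target, stood at 136, 125 and 219 FPKM in controls and 439.6, 471 and 513 FPKM in Tsc2 KO, wide apart, a log2 fold change of 1.63 ± 0.25 (SE, adjusted p = 0.000465). In the untreated KspCre cohort it stood at 277, 222 and 309.5 and 289, 294 and 429.7 FPKM and under vehicle at 243, 298 and 301 and 516, 258 and 351 FPKM. Those groups overlapped, and the log2 fold changes of 0.32 and 0.42 were not called. P4ha2, a second prolyl 4-hydroxylase, stood at 2.72, 2.87 and 2.96 FPKM in CaggCreERT2 controls and 6.78, 6.68 and 4.36 FPKM in Tsc2 KO, without overlap (1.12 ± 0.20 SE, adjusted p = 0.00139), against 2.20, 2.71 and 2.46 and 2.602, 2.75 and 3.57 FPKM under vehicle. The differences between cohorts themselves were not tested, since the cohorts differ in Cre, age and sex.

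The remaining HIF members were mostly not called. Hif1a itself had log2 fold changes of 0.41, 0.04 and 0.07 in Tsc2 KO against control, none called, and its control replicate 2 under vehicle, at 37.0 FPKM, stood above the other 2 at 16.6 and 18.9 FPKM. Adm (adrenomedullin, a vasodilator peptide) rose under vehicle (0.61 ± 0.20 SE, adjusted p = 0.0242), and Bnip3 (a mitophagy receptor) fell (-0.63 ± 0.23 SE, adjusted p = 0.0411). Adm also lost its call without any 1 vehicle control or Tsc2 KO replicate 1 (adjusted p up to 0.108), and Bnip3 without any 1 library other than Tsc2 KO replicate 1 (up to 0.186). Without the libraries high in adrenal markers Adm was not called (adjusted p = 0.131) and Bnip3 stood at -0.98 (adjusted p = 0.00269). Egln3 (an oxygen-sensing prolyl hydroxylase) had log2 fold changes of 0.09, -0.17 and -0.06, Car9 (carbonic anhydrase 9) of -0.00, 0.64 and -0.74, and Ankrd37 of 0.99, 0.55 and 0.68, none called. Car9 and Ankrd37 stayed below 5 FPKM in the control and Tsc2 KO groups of every cohort, so they could not be called. Egln3 could be called only under vehicle, its control and Tsc2 KO means being below 5 FPKM elsewhere.

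**Figure D4:**
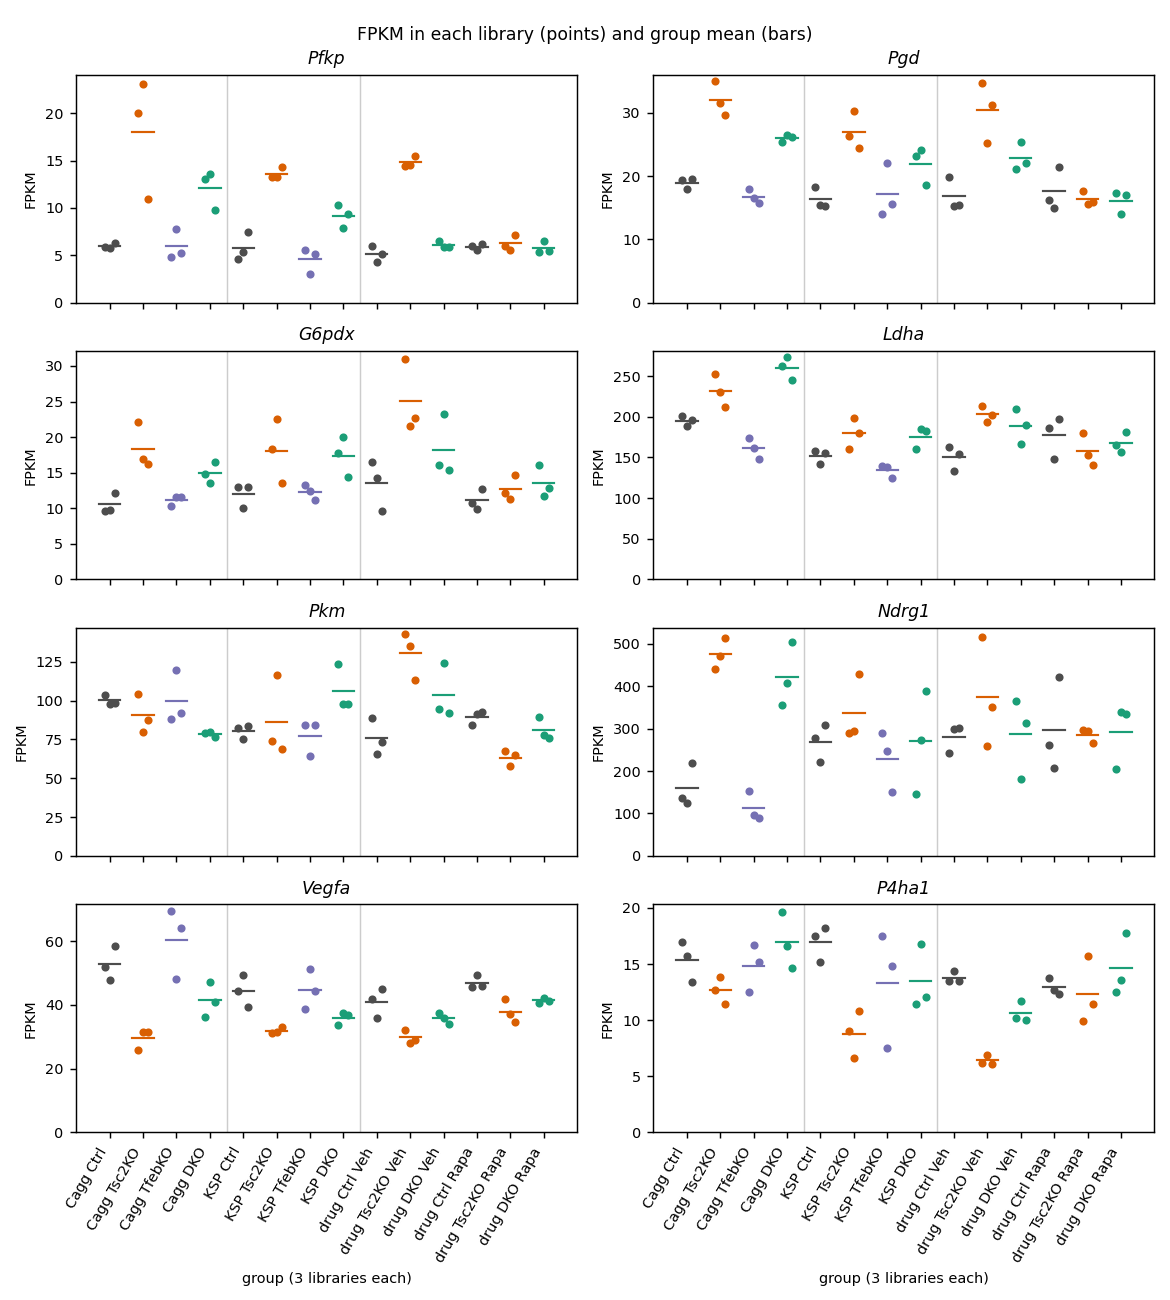
FPKM (vertical axes, from 0) of 8 members in each library (points) and the mean of 3 libraries (bars), by group, with grey for control, orange for Tsc2 KO, purple for Tfeb KO and green for DKO, and with the drug cohort at the right. The orange points of Pfkp lie above the grey ones in each untreated or vehicle set and those of Vegfa below, and with rapamycin the orange Pfkp points (5.54 to 7.18 FPKM) overlap the grey rapamycin points (5.51 to 6.17 FPKM).

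Deletion of Tfeb on top of Tsc2 moved 2 members past the threshold in the CaggCreERT2 cohort and 0 in the untreated KspCre cohort. In every cohort, vehicle included, DKO against Tsc2 KO shares its Tsc2 KO libraries with Tsc2 KO against control, so the results are not independent. In CaggCreERT2 DKO against Tsc2 KO, 1 of 30 members rose and 1 fell, against 6.91% and 7.56% of all genes. Car9 rose (2.36, 1.24 and 4.15 FPKM in Tsc2 KO and 4.46, 6.08 and 8.90 FPKM in DKO, log2 fold change 1.30 ± 0.38 SE, adjusted p = 0.0489), with all 3 DKO libraries higher. It reached 5 FPKM only through the DKO group, so only a rise could be called. Pgd fell, from the Tsc2 KO values above to 25.4, 26.4 and 26.1 FPKM, below all Tsc2 KO libraries and above all controls (-0.33 ± 0.09 SE, adjusted p = 0.0446). The Car9 call was lost without Tsc2 KO replicate 1 or 2 or DKO replicate 2 or 3 (adjusted p up to 0.192), and the Pgd call held only without Tsc2 KO replicate 3 (up to 0.177) and was also lost with Xist as a covariate. Among untreated KspCre kidneys 0 of 28 members was called, against 0.117% of all genes up and 0.169% down, with 7 members at an unadjusted p under 0.05 in edgeR and 3 called by DESeq2. Pfkp there stood at 10.3, 7.84 and 9.41 FPKM in DKO, between the controls and Tsc2 KO without overlap (-0.56 ± 0.23 SE, adjusted p = 0.339). Egln3 was higher in every DKO library than in Tsc2 KO in both of these cohorts, without a call, whereas under vehicle the groups overlapped (6.64 to 7.37 FPKM in DKO and 3.25 to 7.96 FPKM in Tsc2 KO). It stood at 4.42, 5.59 and 4.00 FPKM in Tsc2 KO and 7.16, 7.03 and 6.99 FPKM in DKO of the CaggCreERT2 cohort (0.57 ± 0.17 SE, adjusted p = 0.0524), and at 4.38, 4.50 and 3.52 and 8.02, 7.87 and 8.78 FPKM in the untreated KspCre cohort (0.996 ± 0.27 SE, adjusted p = 0.152). Vegfa lay above every Tsc2 KO library in DKO of each cohort, vehicle included, without a call. Its DKO values were 36.1 to 47.2, 33.5 to 37.5 and 34.0 to 37.6 FPKM. P4ha1 also lay higher and Eno2 lower in each, and only P4ha1 under vehicle was called. Ankrd37, an ankyrin repeat gene and known HIF target, stood at 1.72, 1.54 and 0.883 FPKM in Tsc2 KO and 3.77, 7.22 and 3.27 FPKM in DKO of the CaggCreERT2 cohort, apart but below the FPKM minimum (1.75 ± 0.40 SE, adjusted p = 0.0181).

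Under vehicle the same comparison moved more members, in groups of which 3 libraries were high in adrenal markers. In DKO against Tsc2 KO 5 of 28 members rose and 3 fell, against 16.9% and 12.6% of all genes. Pfkp stood at 6.55, 5.84 and 5.92 FPKM in DKO, overlapping the controls and far below Tsc2 KO, and fell, with a log2 fold change of -1.28 ± 0.13 (SE, adjusted p = 6.15e-06). P4ha1 (10.2, 11.7 and 10.01 FPKM) rose by 0.72 ± 0.15 (SE, adjusted p = 0.00308) to values between Tsc2 KO and control, Pfkm (28.6, 23.6 and 25.9 FPKM) rose by 0.51 ± 0.10 (SE, adjusted p = 0.00183), and Pfkl, Pgk1 and Taldo1 rose by 0.49, 0.43 and 0.36. Slc2a1 (14.4, 16.7 and 14.7 FPKM) fell, with a log2 fold change of -0.64 ± 0.19 (SE, adjusted p = 0.0237), and so did Pdk1, at -0.80 ± 0.27 (SE, adjusted p = 0.0409). With any 1 library left out the calls of Pfkp, P4ha1 and Pfkm held, whereas Pdk1 held only without DKO replicate 3 (adjusted p up to 0.155 otherwise), Pfkl only without Tsc2 KO replicate 3 or DKO replicate 1 (up to 0.115), Pgk1 only without Tsc2 KO replicate 3 or DKO replicate 2 (up to 0.198), and Taldo1 was lost without replicate 2 of either group (up to 0.0818). Slc2a1 was lost without Tsc2 KO replicate 1 or DKO replicate 1 or 3 (up to 0.145). With the 3 libraries high in adrenal markers left out, which leaves 1 DKO library assumed to vary like the others, Pfkp alone was called, at -1.34 (adjusted p = 0.00187). The log2 fold changes of P4ha1, Pfkm, Pgk1, Pfkl and Taldo1 were then 0.62, 0.44, 0.39, 0.38 and 0.30, with adjusted p-values of 0.0751 to 0.354. Slc2a1 moved to -0.44 (adjusted p = 0.361) and Pdk1 to -0.09 (adjusted p = 0.924). Pdk1 was at 3.10 and 3.08 FPKM in the 2 DKO libraries high in adrenal markers and at 5.90 FPKM in the third, and the part of adrenal or erythroid RNA in these values was not tested. Pdk1 reached 5 FPKM only through the Tsc2 KO group, so only a fall could be called.

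Against control, the double knockout had 13 called members in the CaggCreERT2 cohort and few in the others. There 12 of 30 members rose and 1 fell, against 10.2% and 4.73% of all genes. The risers were Ndrg1 (1.44), P4ha2 (1.10), Car9 (1.29), Pfkp (1.06), Aldoc (0.69), Egln3 (0.67), Pgam1 (0.66), G6pdx (0.54), Pgd (0.49), Ldha (0.46), Tpi1 (0.43) and Eno1 (0.40), as log2 fold changes, and Pdk1 fell, at -1.17. Of these, P4ha2, Car9 and Egln3 reached 5 FPKM only through the DKO group, so only a rise could be called for them. Pdk1 reached it only through the control group, so only a fall could be called. Ndrg1, P4ha2, Pgam1 and Pgd held with any 1 library left out, while the count fell to between 4 and 7 without each of the 6 libraries in turn (4 without control replicate 1 or 2), and to 0 with the sample names of the count table. With Xist as a covariate for sex, Car9, G6pdx and Eno1 lost their calls. Ndrg1 stood at 355, 407 and 503 FPKM and Ldha at 263, 274 and 246 FPKM in DKO, both above every control. For untreated KspCre kidneys 1 of 28 members, Aldoc (1.195 ± 0.26 SE, adjusted p = 0.0318), rose and none fell, against 2.33% and 1.56% of all genes, and this call was lost without any 1 control library or DKO replicate 3 (adjusted p up to 0.134). Under vehicle Pgam1 rose (0.42 ± 0.10 SE, adjusted p = 0.025) and Pdk1 fell (-1.19 ± 0.27 SE, adjusted p = 0.0166), 1 of 28 each, against 5.37% and 3.05%, and neither was called without the libraries high in adrenal markers, 2 of them DKO (0.34, adjusted p = 0.389 for Pgam1 and -0.63, adjusted p = 0.494 for Pdk1). Pgam1 also lost its call without control replicate 2 or 3 or DKO replicate 1 (up to 0.102), and Pdk1 without control replicate 3 or DKO replicate 1 or 2 (up to 0.0703). Under vehicle, too, Pdk1 reached 5 FPKM only through the control group.

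Tfeb loss alone moved no member past the threshold. Among CaggCreERT2 kidneys 0 of 27 members was called, against 0.0128% of all genes up and 0.0128% down, with 5 members at an unadjusted p under 0.05 and 0 called by DESeq2. The untreated KspCre kidneys gave 0 of 29 called, against 0% of all genes in each direction, with 1 member at an unadjusted p under 0.05 and 0 called by DESeq2. The interaction, which asks whether the effect of Tfeb loss differs with and without Tsc2, called 0 members in the CaggCreERT2 cohort (2.13% of all genes) and 0 in the untreated KspCre cohort (0%). At an unadjusted p under 0.05 it held 6 members in each, and DESeq2 called 1 in each.

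Rapamycin in Tsc2 KO kidneys lowered Pfkp, Pgd, G6pdx, Pkm and Adm and raised P4ha1 and Vegfa. This comparison shares its vehicle Tsc2 KO libraries with the vehicle comparison above. Of 28 members 2 rose and 5 fell, against 21.2% and 17.3% of all genes. With rapamycin Pfkp stood at 6.03, 5.54 and 7.18 FPKM, Pgd at 17.6, 15.6 and 15.9 FPKM and G6pdx at 12.2, 11.3 and 14.6 FPKM, each below all vehicle Tsc2 KO libraries and overlapping the rapamycin-treated controls. The log2 fold change was -1.25 ± 0.13 (SE, adjusted p = 3.95e-06) for Pfkp, -0.89 ± 0.15 (SE, adjusted p = 0.000442) for Pgd and -0.98 ± 0.21 (SE, adjusted p = 0.00238) for G6pdx. Pkm stood at 67.7, 57.5 and 64.7 FPKM, below even the rapamycin-treated controls at 84.5, 91.1 and 92.9 FPKM, and fell, with a log2 fold change of -1.04 ± 0.14 (SE, adjusted p = 5.46e-05). Adm stood at 5.31, 4.46 and 3.33 FPKM and fell, with a log2 fold change of -1.11 ± 0.20 (SE, adjusted p = 0.000647). It reached 5 FPKM only through the vehicle group, so only a fall could be called. P4ha1 stood at 9.93, 15.7 and 11.4 FPKM, above the vehicle libraries, and rose by 0.94 ± 0.15 (SE, adjusted p = 0.000274). Vegfa stood at 41.8, 37.0 and 34.7 FPKM, above the vehicle libraries and below the rapamycin-treated controls, and rose by 0.35 ± 0.10 (SE, adjusted p = 0.0169), a call lost without vehicle replicate 2 or 3 or rapamycin replicate 1 (adjusted p up to 0.0729). Vegfa also lay above every vehicle library in control (45.7, 49.4 and 45.9 FPKM with rapamycin, 0.20 ± 0.10 SE, adjusted p = 0.46) and in DKO (40.7, 42.3 and 41.2 FPKM, 0.21 ± 0.10 SE, adjusted p = 0.241), without a call, and its rise in Tsc2 KO was not called as different from either (adjusted p = 0.504 and 0.641). Aldoa (-0.33 ± 0.15 SE, adjusted p = 0.108) and Ldha (-0.36 ± 0.14 SE, adjusted p = 0.057) were not called. Without the libraries high in adrenal markers the 7 members were called again, and Egln3 (-0.57, adjusted p = 0.0448) and Bnip3 (0.85, adjusted p = 0.00932) were called too.

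In control kidneys rapamycin moved no member past the threshold. There 0 of 28 members was called, against 0% of all genes up and 0.0664% down, with 3 members at an unadjusted p under 0.05 and 0 called by DESeq2. The test of the difference between the rapamycin effect in Tsc2 KO and in control called 5 of 28 members, 1 up and 4 down (3.57% and 14.3%), against 29.8% of all genes in either direction, a larger share than among the members. These were Pfkp (-1.45 ± 0.18 SE, adjusted p = 6.72e-05), Pgd (-0.96 ± 0.22 SE, adjusted p = 0.00584), Pkm (-1.28 ± 0.20 SE, adjusted p = 0.000405) and Ldha (-0.60 ± 0.19 SE, adjusted p = 0.0369), lower with rapamycin in Tsc2 KO relative to control, and P4ha1 (1.03 ± 0.22 SE, adjusted p = 0.00342), higher. The Ldha call held only without vehicle replicate 1 or rapamycin replicate 2 of control, or without vehicle replicate 2 or rapamycin replicate 1 of Tsc2 KO (adjusted p up to 0.0895 otherwise). Without the libraries high in adrenal markers the other 4 were called, Ldha was not (-0.56, adjusted p = 0.0697), and Bnip3 was (1.199, adjusted p = 0.00914). Ldha stood at 186, 148 and 198 FPKM in rapamycin-treated controls and 181, 153 and 141 FPKM in rapamycin-treated Tsc2 KO, groups that overlapped.

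In the double knockout rapamycin called 4 of 27 members, 1 up and 3 down, against 2.73% and 4.7% of all genes. Adm fell (8.32, 7.83 and 6.84 FPKM with vehicle, 3.63, 2.86 and 4.67 FPKM with rapamycin, -1.04 ± 0.20 SE, adjusted p = 0.00809), Pfkm fell (20.1, 19.6 and 17.8 FPKM with rapamycin, -0.44 ± 0.10 SE, adjusted p = 0.0203) and Pgam1 fell (-0.42 ± 0.10 SE, adjusted p = 0.0258). Adm reached 5 FPKM only through the vehicle group, so only a fall could be called for it. Slc2a1 rose to 25.1, 28.3 and 23.9 FPKM (0.76 ± 0.19 SE, adjusted p = 0.0297), above every vehicle DKO library. In control kidneys it also lay above every vehicle library, at 27.7, 23.8 and 26.2 FPKM with rapamycin, without a call (0.39 ± 0.19 SE, adjusted p = 0.451). Without the libraries high in adrenal markers, which leaves 1 vehicle DKO library, no member was called, with adjusted p-values of 0.179 to 0.361 for these 4. Their log2 fold changes were then -0.88 for Adm, -0.43 for Pfkm, -0.34 for Pgam1 and 0.80 for Slc2a1. Leaving out rapamycin replicate 2 alone also left 0, with an adjusted p of 0.0539 for Adm. Pfkm held only without vehicle replicate 2 or rapamycin replicate 1 (adjusted p up to 0.0993 otherwise), Slc2a1 only without vehicle replicate 2 (up to 0.128), and Pgam1 was lost without vehicle replicate 1 or rapamycin replicate 1 or 2 (up to 0.103). In control kidneys Adm stood at 5.96, 6.22 and 6.47 FPKM with vehicle and 4.00, 3.35 and 4.17 FPKM with rapamycin, apart but not called (-0.69 ± 0.20 SE, adjusted p = 0.348). Rapamycin-treated DKO also lay below every vehicle DKO library for Pgd (14.1 to 17.3 against 21.2 to 25.3 FPKM) and Pkm (76.2 to 89.3 against 92.1 to 124 FPKM). For P4ha1 it lay above (12.55 to 17.8 against 10.01 to 11.7 FPKM). None of these was called, their groups overlapped in control, and those of Pfkp and G6pdx overlapped in DKO.

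The rapamycin effect differed between Tsc2 KO and DKO for 4 of 28 members, 1 up and 3 down (3.57% and 10.7%), against 11% of all genes in either direction. Pfkp (-1.17 ± 0.18 SE, adjusted p = 0.00128), Slc2a1 (-1.05 ± 0.27 SE, adjusted p = 0.0256) and Pkm (-0.69 ± 0.20 SE, adjusted p = 0.0471) were lower and Pfkm (0.68 ± 0.14 SE, adjusted p = 0.00989) higher with rapamycin in Tsc2 KO relative to DKO. Pfkp stood at 5.34, 6.53 and 5.45 FPKM in rapamycin-treated DKO, much as with vehicle. Slc2a1 stood at 17.2, 15.4 and 25.2 FPKM in rapamycin-treated Tsc2 KO. Without the libraries high in adrenal markers Pfkp kept its call (-1.23, adjusted p = 0.0177), with 1 vehicle DKO library left. The other 3 were not called, at -0.86 for Slc2a1, -0.78 for Pkm and 0.61 for Pfkm (adjusted p of 0.0725 to 0.17). Slc2a1 also lost its call without Tsc2 KO vehicle replicate 1, Tsc2 KO rapamycin replicate 1 or 2, DKO vehicle replicate 1 or 3 or DKO rapamycin replicate 2 (adjusted p up to 0.0714). Pkm held only without Tsc2 KO vehicle replicate 3 or DKO vehicle replicate 2 (up to 0.122 otherwise).

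Related genes outside the 35 were counted in fixed lists for the routes around glycolysis. The counts stand against the shares of all genes at 5 FPKM given above for Tsc2 KO against control, 23% up and 15.5% down, 9.42% and 8.74%, and 23.8% and 24.6% in the 3 cohorts. In gluconeogenesis, by which the proximal tubule makes glucose, 1 of 8 listed genes rose and 2 fell in the CaggCreERT2 cohort, 1 rose and 0 fell in the untreated KspCre cohort, and 1 rose and 6 fell under vehicle, with median log2 fold changes of -0.24, -0.31 and -1.17, and all 8 reached 5 FPKM. Pck1, the cytosolic PEP carboxykinase, had log2 fold changes of -2.57 ± 0.45 (SE, adjusted p = 0.00117), -1.05 ± 0.49 (SE, adjusted p = 0.189) and -2.98 ± 0.40 (SE, adjusted p = 2.54e-05), the second not called. Pck2, its mitochondrial counterpart, rose in all 3 (1.04 ± 0.10 SE, adjusted p = 2.37e-05, 1.27 ± 0.16 SE, adjusted p = 0.000633 and 1.54 ± 0.17 SE, adjusted p = 4.63e-06). Pcx (pyruvate carboxylase) fell in the CaggCreERT2 and vehicle cohorts (-0.83 and -1.505).

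Khk fell and Pklr rose in all 3 cohorts. Of 19 other glucose transport and glycolysis genes, 2 rose and 7 fell, 2 rose and 2 fell, and 1 rose and 4 fell in the 3 cohorts in that order, 10 of the 19 reaching 5 FPKM, with medians of -0.13, 0.04 and -0.11. Khk (ketohexokinase, which phosphorylates fructose) had log2 fold changes of -1.56 ± 0.25 (SE, adjusted p = 0.000637), -1.53 ± 0.19 (SE, adjusted p = 0.00053) and -2.47 ± 0.18 (SE, adjusted p = 8.64e-08). Slc2a5 (the fructose transporter) fell, at -0.90 in the CaggCreERT2 cohort and -2.10 under vehicle. Pklr (pyruvate kinase of liver and red cell) rose by 2.02 ± 0.28 (SE, adjusted p = 0.000257), 1.21 ± 0.30 (SE, adjusted p = 0.0192) and 0.75 ± 0.27 (SE, adjusted p = 0.0386). Its share of pyruvate kinase FPKM was 8.57% ± 0.652 in the CaggCreERT2 controls and 27.7% ± 8.03 in Tsc2 KO, but 11.3% ± 2.40 and 11.5% ± 4.03 under vehicle, where Pkm rose too. Slc2a2 (the glucose transporter of the basal tubule membrane) rose by 0.72 and 1.08 in the first 2 cohorts, and Pgam2 (the muscle mutase) fell, at -1.11, in the first.

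In the lists of pyruvate and lactate use and of other pentose phosphate genes more genes fell than rose, with few calls in the untreated KspCre cohort. Of 14 genes of pyruvate and lactate use 1 rose and 5 fell, 0 rose and 2 fell, and 1 rose and 8 fell, 13 of the 14 reaching 5 FPKM, with medians of -0.25, -0.16 and -0.58. Slc16a1, a monocarboxylate transporter, rose by 1.70 and 1.46 in the CaggCreERT2 and vehicle cohorts, and Ldhd (D-lactate dehydrogenase) fell in all 3, at -1.05, -1.29 and -1.62. Pdk2 and Pdk3, kinases of pyruvate dehydrogenase like Pdk1, fell at -0.53 (CaggCreERT2) and -0.70 (untreated KspCre), and Mpc1, a subunit of the mitochondrial pyruvate carrier, at -1.005 under vehicle. Of 9 other pentose phosphate genes 1 rose and 4 fell, 0 rose and 1 fell, and 0 rose and 4 fell, with 9, 8 and 8 reaching 5 FPKM and medians of -0.36, -0.11 and -0.57. H6pd, the G6pdx counterpart of the endoplasmic reticulum, rose by 0.84 in the CaggCreERT2 cohort. Tkfc (triokinase, a fructose enzyme) fell in all 3, at -0.70, -0.92 and -1.87, and was the 1 gene of this list that fell in the untreated KspCre cohort. Rpia (ribose 5-phosphate isomerase) fell at -0.69 in the CaggCreERT2 cohort, and Shpk (sedoheptulokinase) and Rpe (ribulose 5-phosphate epimerase) at -0.76 and -0.57 under vehicle.

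Among HIF regulators and other HIF targets the directions were mixed as well. Of 9 regulators 1 rose and 1 fell, 0 rose and 1 fell, and 2 rose and 3 fell, with 8, 7 and 8 reaching 5 FPKM and medians of 0.19, -0.03 and 0.26. Egln1, the main oxygen-sensing hydroxylase of HIF, had log2 fold changes of -0.32 ± 0.09 (SE, adjusted p = 0.0169), -0.46 ± 0.12 (SE, adjusted p = 0.0265) and -0.60 ± 0.09 (SE, adjusted p = 5.18e-05). Cited2, which competes with HIF for its coactivator, rose by 0.46 in the CaggCreERT2 cohort, and under vehicle Epas1 (HIF2 alpha) fell, at -0.80, and Arnt2 (a HIF partner) rose by 0.53. Of 24 other HIF targets 7 rose and 1 fell, 1 rose and 2 fell, and 3 rose and 3 fell, with 20, 16 and 17 reaching 5 FPKM and medians of 0.28, 0.19 and 0.34. Ddit4, which restrains mTORC1 and is also induced by other stresses, rose by 1.496 ± 0.22 (SE, adjusted p = 0.000366), 1.56 ± 0.24 (SE, adjusted p = 0.00164) and 2.17 ± 0.32 (SE, adjusted p = 6.5e-05). Ak4, a mitochondrial adenylate kinase, fell in all 3, at -3.34 ± 0.41 (SE, adjusted p = 0.000116), -2.21 ± 0.56 (SE, adjusted p = 0.0222) and -4.56 ± 0.52 (SE, adjusted p = 5.1e-06). Flt1 (a VEGF receptor of endothelium) fell, at -1.19, in the untreated KspCre cohort, and Lox (lysyl oxidase) rose by 1.89 under vehicle. With rapamycin in Tsc2 KO, where 21.2% of all genes rose and 17.3% fell, 6 of 10 glucose transport and glycolysis genes at 5 FPKM rose and 0 fell. The counts were 5 and 1 of 8 for gluconeogenesis, 6 and 0 of 13 for pyruvate and lactate use, 4 and 0 of 8 for the other pentose phosphate genes, 1 and 2 of 8 for HIF regulators and 2 and 4 of 17 for HIF targets.

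Marker genes of several kidney cell types moved with the same comparisons. The 8 proximal tubule markers summed to 1799 to 2040 FPKM in the CaggCreERT2 controls and 426 to 884 in Tsc2 KO, to 1740 to 2058 and 697 to 1356 in the untreated KspCre cohort, and to 1721 to 1995 and 367 to 562 under vehicle. Of the 8 markers 6, 5 and 7 fell and 0 rose. In rapamycin-treated Tsc2 KO the sum was 1594 to 1956, close to the 1804 to 2015 of the rapamycin-treated controls. The 5 injured tubule markers summed to 1351 to 1692 FPKM in the CaggCreERT2 controls and 4984 to 7526 in Tsc2 KO, to 1189 to 1552 and 5729 to 7594 in the untreated KspCre cohort, and to 1192 to 1233 FPKM in vehicle controls and 5086 to 7417 in vehicle Tsc2 KO. For 8 macrophage markers the sums were 89.6 to 117.5 and 131.5 to 180.7 FPKM, 55.6 to 79.1 and 96.3 to 160.6, and 43.6 to 59.8 and 92.2 to 183 in the same order. Erythroid markers were lower in Tsc2 KO of the untreated KspCre cohort, at 20.4 to 42.7 against 127.6 to 492.5 FPKM, and overlapped in the CaggCreERT2 cohort. The 3 distal convoluted tubule markers summed to 329 to 371 and 53.8 to 170.3 FPKM in control and Tsc2 KO of the CaggCreERT2 cohort, to 201.5 to 215 and 59.3 to 103 in the untreated KspCre cohort, and to 242 to 298.5 and 50.9 to 65.7 under vehicle. The 6 principal cell markers of the collecting duct were also lower in every Tsc2 KO library than in any control of its cohort, at 251 to 300.3 against 364 to 428 FPKM under vehicle. The 4 intercalated cell markers summed to 87.6 to 118 and 157 to 283 FPKM in the untreated KspCre cohort and to 84.2 to 125 and 297 to 381 under vehicle, but overlapped in the CaggCreERT2 cohort (139 to 147 and 73.2 to 169). Those of the thick ascending limb, 3 genes, lay at 1078 to 1363 and 727 to 823 FPKM in the CaggCreERT2 cohort and at 1365 to 1515 and 1933 to 2106 in the untreated KspCre cohort, and overlapped under vehicle. The 6 proliferation markers summed to 1.41 to 3.29 and 14.6 to 19.3 FPKM in the untreated KspCre cohort and to 1.19 to 1.74 and 8.97 to 29.6 under vehicle, and overlapped in the CaggCreERT2 cohort. The 6 endothelial markers summed to 153 to 239 and 85.7 to 136 FPKM in the untreated KspCre cohort and to 116 to 137 and 82.0 to 102 under vehicle, and overlapped in the CaggCreERT2 cohort. Skeletal muscle markers in the CaggCreERT2 Tsc2 KO libraries summed to 5.38 to 11.8 FPKM against 1.64 to 2.35 in controls, while Pgam2 and Pfkm, both muscle isozymes, were lower there. In the KspCre DKO group replicate 1 held macrophage markers at 705 FPKM against 64.5 and 89.8 in the other 2. Injured tubule markers of DKO stood at 3893 to 6459, 2587 to 3293 and 1463 to 3303 FPKM in the cohorts in the order above, the first overlapping Tsc2 KO. Proximal tubule markers of DKO stood at 1145 to 1410, 688 to 1515 and 1015 to 1790 FPKM, the second overlapping Tsc2 KO. In rapamycin-treated Tsc2 KO, injured tubule markers stood at 1590 to 2385 FPKM, below every vehicle Tsc2 KO library, and podocyte markers at 37.2 to 101 FPKM, above them. The part of each of these in the members' values was not tested.

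Gapdh, the glyceraldehyde 3-phosphate dehydrogenase of lower glycolysis, could not be read in either KspCre cohort. Its count in the CaggCreERT2 cohort was 32393 to 53001 reads, with a spread within groups of 1.07 to 1.23-fold, and the gene was called in no comparison. Its count in the untreated KspCre cohort was 101 to 7238 reads and in the drug cohort 63 to 4998 reads, with up to 26.1-fold and 45.7-fold between libraries of 1 group. Pgk1, its neighbour in the pathway, held 7243 to 12381, 4886 to 11860 and 6771 to 13044 reads in the same 3 cohorts. Eno1b, a near copy of Eno1, had a median of 12 reads in the CaggCreERT2 cohort and 414 and 402 in the KspCre cohorts, and processed pseudogenes took a median of 0.0722% of reads against 0.447% and 0.467%. The mouse genome holds many processed copies of Gapdh. How reads that match several copies were assigned in each table is not given in the sources used here, and the part of this in the values was not tested, so no direction is drawn for Gapdh in the KspCre tables.

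**Figure D5:**
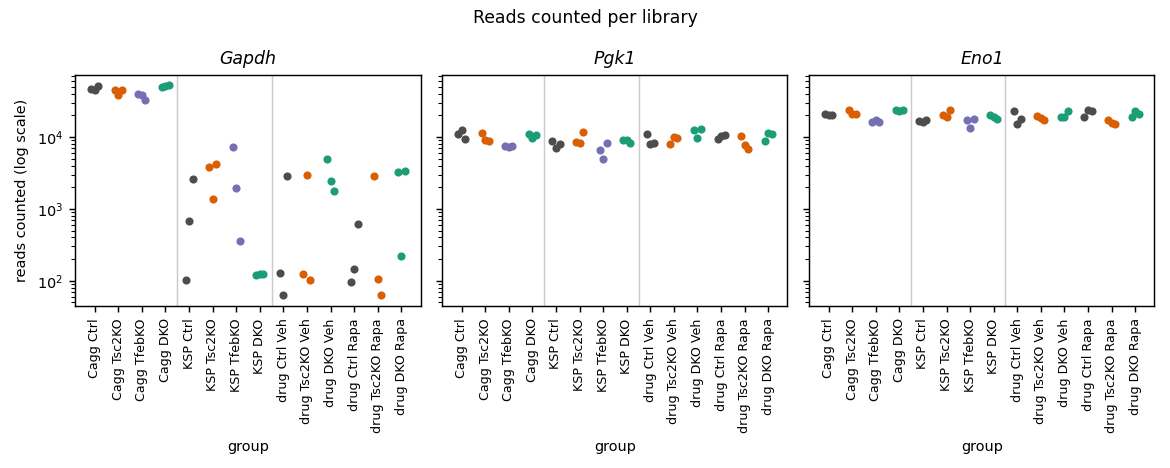
Reads counted per library (log scale) for Gapdh, Pgk1 and Eno1, by group, with 3 points a group. Gapdh lies between 32393 and 53001 reads in the 12 libraries at the left and spreads from 63 to 7238 reads in the KspCre libraries, whereas Pgk1 and Eno1 range from 4886 to 13044 and from 13502 to 24161 reads.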

How the data were processed

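RNA of whole kidney was sequenced as poly-A libraries made without strand marking. The authors deposited a table of read counts per gene (raw, whole numbers) and a table of FPKM (normalized by the authors to transcript length and library size) for each of 3 cohorts. The submitters' processing notes name STAR 2.6.1d, HISAT2 2.0.5, featureCounts 1.5.0-p3, DESeq2 1.20.0 and the build mm10, without saying which aligner made which table. Overlapping and antisense genes cannot be told apart in such counts. Libraries held 16047699 to 20865587 counts in the CaggCreERT2 cohort, 14926050 to 20541625 in the untreated KspCre cohort and 15104557 to 22807605 in the drug cohort. Member rows were found by gene name (36 rows for 35 names, as Aldoa has a second row at under 1 FPKM, which was not used).

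Counts were tested with edgeR 4.0.16 in R 4.3.3 (filterByExpr, TMM, quasi-likelihood), each cohort being fitted once with its groups together, and Benjamini-Hochberg adjustment over the 16348, 16631 and 17027 genes tested. FPKM gave the levels and the minimum of 5. Alternatives were RLE scaling, DESeq2 1.42.0, no filter on low counts, no FPKM minimum, only the 2 groups compared, a replicate block, the names of the CaggCreERT2 count table, a covariate for Xist, each library left out in turn and, chosen after seeing the data, the libraries with an adrenal marker sum over 100 FPKM left out. The scripts were tested on simulated data. All 35 members could be named by role. Values of each library were given for members called the same way in Tsc2 KO against control in at least 2 cohorts, for the 3 called members with the largest change in each cohort and for members called in an interaction, and other members were added where a result turned on them, chosen after their values were seen. Up to 3 called genes with the largest change were named from each list of related genes in each cohort, except some that are not reported here, so the genes named are not in every list those with the largest change. The members, lists and tests were chosen with earlier results of these data known. Promoter windows came from RefSeq on GRCm38.p6.

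Among the CaggCreERT2 samples 4 libraries carry different sample names in the count table and the FPKM table, although their values match across the tables under the other name. The FPKM table's names are the ones used throughout.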

Additional observations from a re-analysis of the deposited data

Results flagged for a closer look

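The effect of rapamycin differed between genotypes for 9 tests of single members, each an interaction term in edgeR across all genes. They are 5 of 28 members against control, where 29.8% of all genes were called, and 4 of 28 against DKO, where 11% were. Against control kidneys, the log2 effect in Tsc2 KO differed by -1.45 for Pfkp, by -0.96 for Pgd, by -1.28 for Pkm and by -0.60 for Ldha, and by 1.03 for P4ha1. The Ldha call was lost without the libraries high in adrenal markers (-0.56) and in 8 of 12 fits that left out 1 library. Against DKO it differed by -1.17 for Pfkp, by -1.05 for Slc2a1 and by -0.69 for Pkm, and by 0.68 for Pfkm. Of the differences from DKO, that of Pfkp alone was called without the libraries high in adrenal markers, which leaves 1 vehicle DKO library.

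In 3 members that reached a group mean of 5 FPKM the libraries of one cohort or genotype all moved one way and those of another the opposite way. For Gapdh and Pkm the difference was not tested. Gapdh in DKO against Tsc2 KO had a log2 fold change of 0.33 in the CaggCreERT2 cohort and -4.60 in the untreated KspCre cohort, where its reads ranged up to 26.1-fold within a group and no direction is drawn from it. Pkm in DKO against control stood at -0.31 in the CaggCreERT2 cohort, 0.40 in the untreated KspCre cohort and 0.45 under vehicle, none of them called. Within the drug cohort, Pfkm with rapamycin stood at 0.24 in Tsc2 KO and -0.44 in DKO, the pair tested above.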

How the results depend on the processing

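The 77 called log2 fold changes of members gave 1069 values under the alternatives, all of the same sign, of which 783 were still called and 286 were not. The counts of members called depended more on the setting. In the CaggCreERT2 cohort, Tsc2 KO against control (14) gave 9 with Xist as a covariate and 4 with the names of the count table, and 8 to 14 with any 1 library left out. The names of the count table change only Tfeb KO and DKO libraries, which enter that comparison through the shared spread. DKO against control (13) gave 0 with the names of the count table and 4 to 7 with 1 library left out. DKO against Tsc2 KO (2) gave 1 with RLE scaling, 5 with DESeq2, 5 with no filter on low counts, 4 with no FPKM minimum, 0 with only the 2 groups, 1 with Xist as a covariate, 0 with the names of the count table and 0 to 3 with 1 library left out. Tfeb KO against control (0) gave 1 with no filter on low counts, and the interaction (0) gave 1 with DESeq2. In the untreated KspCre cohort, Tsc2 KO against control (5) gave 3 with no filter on low counts and 1 to 3 with 1 library left out. DKO against Tsc2 KO (0) gave 3 with DESeq2, 2 with no filter and 1 with only the 2 groups, DKO against control (1) gave 3, 2 and 0 in the same order and 0 to 1 with 1 library left out, and the interaction (0) gave 1 with DESeq2. Under vehicle, DKO against Tsc2 KO (8) gave 3 with only the 2 groups and 5 to 8 with 1 library left out. DKO against control (2) gave 1 with no filter on low counts, 0 with only the 2 groups and 0 to 4 with 1 library left out. The interaction against control (5) gave 8 with no FPKM minimum and 4 to 6 with 1 library left out. With 1 library left out, Tsc2 KO against control under vehicle (12) gave 8 to 11, rapamycin in Tsc2 KO (7) gave 6 to 10, rapamycin in DKO (4) gave 0 to 5 and the interaction against DKO (4) gave 2 to 4. With the libraries high in adrenal markers left out, DKO against Tsc2 KO under vehicle gave 1, DKO against control 0, rapamycin in DKO 0 and the interaction against DKO 1. Fewer libraries and, under some alternatives, a different set of genes enter these fits. Apart from this and the names in CaggCreERT2 Tsc2 KO against control, the cause was not tested. With the replicate number as a block, Tsc2 KO against control of the untreated KspCre cohort gave 3 in place of 5, and no other count moved by over 1.5 times. Libraries with the same number did not deviate together (median correlations of 0.00184, -0.0406 and -0.00671 in the 3 cohorts), so the numbers name the libraries and do not pair them. At these depths the members below 5 FPKM rest on few reads, as Slc16a3 with 8 to 21 reads in the vehicle controls.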
